A study of Danio rerio with 18 samples.

Results

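The collagen genes of zebrafish were examined in RNA from 18 whole tumours, labelled as melanoma. They were chosen by name alone, as every gene called col or COL, then a type number, the letter a and a chain number, with or without a letter for a copy, and every copy was kept. This gave 56 genes of the 27057 in the deposited table. They were sorted by collagen type into 9 fibrillar genes, 12 genes of cartilage and bone, 15 of basement membranes and anchoring structures, 4 transmembrane genes, 8 fibril-associated genes and 8 genes of beaded filaments and related types.

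In 12 tumours the plasmid was sox10-BRAFV600E, and in 6 it was mitfa-BRAFV600E. They are called sox10 tumours and mitfa tumours here. Both plasmids carry the same activated BRAF kinase, driven by the promoter of sox10, which encodes a regulator of neural crest and glial cells, or of mitfa, which encodes a regulator of the melanocyte lineage. All fish were of a Tu line without functional p53 (p53-/-), had received their plasmid by injection at the 1-cell stage and were grown to adulthood as founders (F0), so that each is a mosaic of cells with and without the plasmid. Tumours were taken once they were large enough for RNA extraction, with no age given. The comparison asks how tumours begun by 1 oncogene under different lineage promoters differ, here in their collagens. Tumours are numbered within each group and the number of fish is not stated, so the p-values cover only the spread among these samples.

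Collagens are triple helices of 3 chains, and each chain is the product of its own gene. Fibrillar collagens form the tensile cords of skin, tendon and bone, and fibril-associated collagens coat them. Type IV collagen forms the net of basement membranes, type VI forms beaded filaments around cells, and transmembrane collagens anchor cells to the matrix. Fibroblasts, osteoblasts and chondrocytes are the usual sources of fibrillar collagen, endothelial and muscle cells make basement membrane chains, and tumours hold collagen from both their stroma and, in some cases, the tumour cells. The zebrafish genome holds several copies of many chains, which may share reads where they are alike.

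The libraries held 14973777 to 21191902 reads assigned to genes. Sox10 tumours 9 and 10 were more alike than any other pair of 1 group. Their counts differed by a median of 2.42 times sampling noise, where other pairs differed by 16.5 to 80.6 times, and they were kept as separate samples. The labels do not say whether these come from separate tumours or fish, and every n of 12 counts both. With their counts summed as 1 sample, 7 collagens were higher and 16 lower, as with both. Melanocyte markers, 12 genes such as pmela, TYR and DCT, summed to 15.8 to 123 counts per 1000000 reads (CPM) in sox10 tumours and to 4514 to 19566 CPM in mitfa tumours. All 9 of them that could be tested were called lower in sox10 tumours, as were 22.4% of all genes tested. The gene of pmela, a protein of pigment granules, had 3.77 to 9.14 CPM in sox10 tumours against 825 to 9897 CPM in mitfa tumours. Pigment cell transcripts were thus scarce in sox10 tumours in spite of the label melanoma. Schwann cell and glia markers summed to 8741 to 54049 CPM in sox10 tumours and to 294 to 588 CPM in mitfa tumours. The labels give no date or batch, so a batch that follows the plasmid and the plasmid itself cannot be told apart.

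More collagens were called lower than higher in sox10 tumours, and those called higher were of low level. Of the 56 genes 47 passed the filter on low counts. In edgeR's quasi-likelihood test and at an adjusted p under 0.05, sox10 tumours had 7 of these higher and 16 lower, with 24 not called. Over all 18731 genes tested the test called 43.9%, with 21.5% higher and 22.4% lower. The share of the tested collagens that was called, 48.9%, was near that of all genes, and it held 14.9% higher and 34.0% lower. The median log2 fold change, sox10 minus mitfa, was -1.20 over the 47 collagens and -0.033 over all genes, with 34 collagens below 0 and 13 above. The count of lower collagens was 9 without mitfa tumour 5 and 5 in limma with sample quality weights, and 13 of the 23 calls held whichever tumour was left out. Over all genes, 4190 were lower in the main fit, 4119 without mitfa tumour 5 and 3680 in limma. In bulk tumour RNA, fewer cells of a type and less RNA per cell cannot be told apart.

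The 7 higher genes were COL2A1 (ENSDARG00000069093), COL4A4, col9a3, COL9A1 (ENSDARG00000073699), COL14A1 (ENSDARG00000005762), col19a1 (ENSDARG00000076163) and col23a1b, and each averaged under 15 CPM in sox10 tumours. Of these, 6, all but COL9A1, passed the count filter through the sox10 tumours alone, so that a higher level there was a condition of their being tested. All 16 lower genes averaged over 30 CPM in mitfa tumours. In only 1 collagen, that copy of COL2A1, did the groups not overlap, where 11.8% of all genes tested had groups apart.

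Other ways of fitting the data ended many of these calls. All 5 fibrillar calls were lost in limma with sample quality weights, where COL1A1 had -1.82 (adjusted p by limma = 0.0869) and COL5A1 -0.36 (adjusted p by limma = 0.716), and also with the outside-gene read share, the percent of reads that fell outside genes, as a covariate, where COL1A1 had -2.42 (adjusted p by edgeR = 0.0870) and COL5A2 -1.45 (adjusted p by edgeR = 0.386). Limma also ended the calls of COL6A3, col11a1b, col16a1, col17a1b, col18a1a and COL8A1, and that covariate those of COL6A3, col11a1b, col16a1, col18a1a and COL8A1. Over all genes, calls fell from 4024 higher and 4190 lower to 3612 and 3680 in limma and to 2432 and 2489 with that covariate. A score of skeletal muscle markers as a covariate ended the calls of COL5A1, COL5A2, COL6A3 and col11a1b. Over all genes, that fit called 3918 higher and 4332 lower. The fibroblast score ended those of col18a1a, at -1.37 (adjusted p by edgeR = 0.505), and col17a1b, among others. The epidermis score ended those of COL5A2, COL6A3 and col11a1b, among others. Further losses are given beside some of the genes, and not all are listed.

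**Figure D1:**
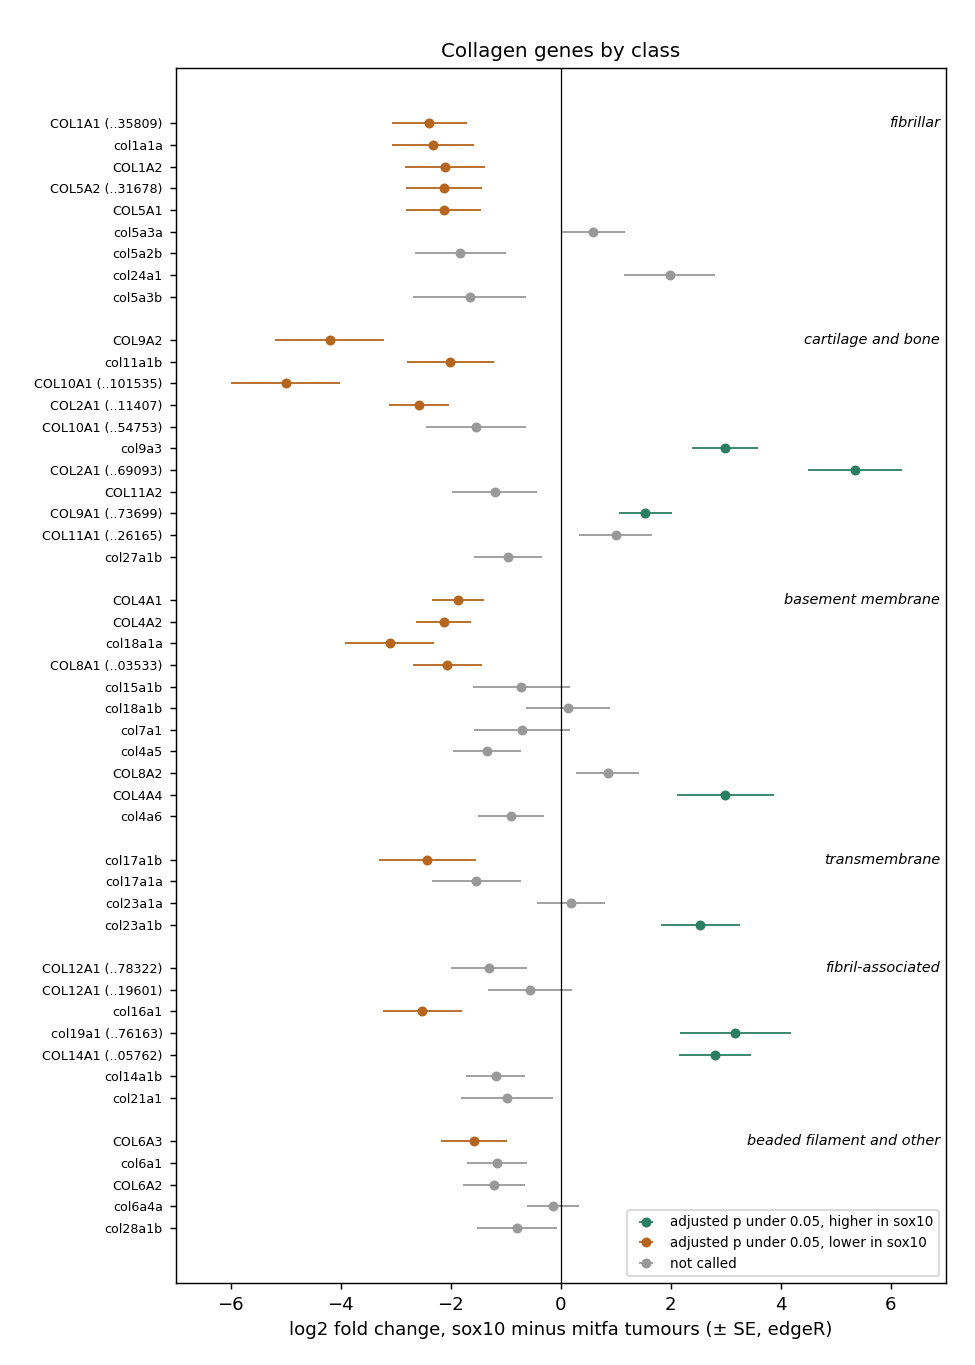
Log2 fold change of the 47 collagen genes that passed the count filter, sox10 minus mitfa tumours, with its standard error as a bar, from edgeR's quasi-likelihood test, with genes grouped by class from top to bottom and copies told apart by the ends of their Ensembl identifiers. The chains COL1A1, col1a1a, COL1A2, COL5A1 and COL5A2 lie close together near -2, whereas genes of cartilage and bone spread from -5.0 to 5.36.

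Type I collagen, the main protein of fibrils in skin, bone and tendon, was lower in sox10 tumours. It is built from chains encoded by COL1A1 (ENSDARG00000035809), its copy col1a1a, and COL1A2. COL1A1 had 33.5 to 645 CPM in sox10 tumours, with a median of 151 CPM, against 15.9 to 2913 CPM in mitfa tumours, with a median of 707 CPM. The sox10 range lay inside the mitfa range, since mitfa tumour 3 was the lowest of all 18 tumours and mitfa tumour 5 the highest. The means were 193 ± 176 CPM (SD, n = 12) in sox10 tumours and 1008 ± 1049.7 CPM (SD, n = 6) in mitfa tumours. On the log2 scale the fold change was -2.39 ± 0.68 (SE, adjusted p by edgeR = 0.00798), and -1.70 without mitfa tumour 5 (adjusted p by edgeR = 0.0495). Without mitfa tumours 1 and 5 together it was -1.79 and no longer called (adjusted p by edgeR = 0.0589).

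The other type I genes were lower too. For col1a1a, sox10 tumours had 29.7 to 528 CPM with a median of 97.6 CPM. Its mitfa values were 514, 67.3, 11.6, 655, 3030.0 and 212 CPM in tumours 1 to 6. Tumour 5 thus stood far above the other mitfa tumours and tumours 2 and 3 below most sox10 tumours. It had a log2 fold change of -2.33 ± 0.75 (SE, adjusted p by edgeR = 0.0164), and COL1A2, with 150.5 ± 133 CPM in sox10 tumours (SD, n = 12) and 646 ± 951 CPM in mitfa tumours (SD, n = 6), had -2.10 ± 0.72 (SE, adjusted p by edgeR = 0.0236). Without mitfa tumour 5 both calls were lost, at -0.97 for col1a1a (adjusted p by edgeR = 0.268) and -0.84 for COL1A2 (adjusted p by edgeR = 0.329).

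In mitfa tumour 2 the type I genes came apart. COL1A1 had 1391 CPM there, col1a1a 67.3 CPM and COL1A2 64.3 CPM. The log2 ratio of COL1A1 over col1a1a within that tumour was 4.36, while it was -0.62 to 0.84 in the 12 sox10 tumours and -0.057 to 0.56 in the other 5 mitfa tumours. Of the type I genes, COL1A1 (ENSDARG00000035809) alone was high in that tumour.

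Type V collagen, which is built into type I fibrils and limits their width, followed type I. COL5A1 had 16.9 to 125 CPM in sox10 tumours, with a median of 43.8 CPM, and 4.83 to 894 CPM in mitfa tumours, with a median of 72.8 CPM. Again mitfa tumour 3 was lowest and mitfa tumour 5 highest, and the groups overlapped. COL5A1 had a log2 fold change of -2.13 ± 0.68 (SE, adjusted p by edgeR = 0.0168) and COL5A2 (ENSDARG00000031678) of -2.13 ± 0.69 (SE, adjusted p by edgeR = 0.0181). Without mitfa tumour 5 these were -0.65 (adjusted p by edgeR = 0.397) and -0.77 (adjusted p by edgeR = 0.334), and neither was called.

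The remaining 4 fibrillar genes were not called. The type V genes col5a3a, col5a2b and col5a3b had log2 fold changes of 0.59, -1.82 and -1.65 (adjusted p by edgeR = 0.432, 0.0822 and 0.203). That of col5a3b turned to 0.73 (adjusted p by edgeR = 0.594) without mitfa tumour 4, which had 15.2 CPM. For col24a1, a minor fibrillar collagen known from developing bone in mice, the mean was 3.11 ± 4.26 CPM in sox10 tumours (SD, n = 12) and 0.777 ± 0.773 CPM in mitfa tumours (SD, n = 6), giving a log2 fold change of 1.98 ± 0.83 (SE, adjusted p by edgeR = 0.0595). Its highest value, 15.5 CPM, was in sox10 tumour 2. In all, 5 of 9 fibrillar genes were lower and 4 not called, with a median log2 fold change of -2.10, and 1 was lower without mitfa tumour 5. Of all genes tested 22.4% were lower. In edgeR col24a1 gained a call without mitfa tumour 5 (2.64, adjusted p by edgeR = 0.0256), without sox10 tumour 6 (2.09, adjusted p by edgeR = 0.0468) or without sox10 tumour 12 (2.09, adjusted p by edgeR = 0.0457), col5a3a without mitfa tumour 5 (1.59, adjusted p by edgeR = 0.0242), and col5a2b without mitfa tumour 1 (-2.08, adjusted p by edgeR = 0.0396), mitfa tumour 3 (-2.13, adjusted p by edgeR = 0.0440) or sox10 tumour 8 (-2.27, adjusted p by edgeR = 0.0312).

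Fibroblast markers are given beside the fibrillar genes. The 15 markers summed to 107 to 742 CPM in sox10 tumours, with a median of 248 CPM, and to 115 to 2278 CPM in mitfa tumours, with a median of 569 CPM. The 3 with most CPM were the POSTN copies (ENSDARG00000104267 and ENSDARG00000043806) and DCN, matrix proteins of fibroblasts. Neither POSTN copy was called. Of 14 tested, 7 were lower in sox10 tumours and 7 not called, where 22.4% of all genes tested were lower. Limma called 4 of the 14 lower, and edgeR 2 with the outside-gene read share as a covariate. Over all genes, those fits called 3680 and 2489 lower. DCN had 35.8 to 126 CPM in sox10 tumours and 14 to 589 CPM in mitfa tumours, a log2 fold change of -1.57 (adjusted p by edgeR = 0.0185). The call of DCN was lost without mitfa tumour 5, at -0.84 (adjusted p by edgeR = 0.171), and without mitfa tumour 1, at -1.34 (adjusted p by edgeR = 0.0544). Mitfa tumour 5 was highest and mitfa tumour 3 lowest of the mitfa group in this sum too. With the fibroblast score as a covariate 11 collagens were higher and 5 lower in sox10 tumours. In that fit 3067 of all genes tested were higher and 3107 lower, against 4024 and 4190 in the main fit. All 5 called fibrillar genes then lost their call. The log2 fold changes of col1a1a, COL1A2, COL5A1 and COL5A2 turned positive, at 0.66, 0.84, 0.67 and 0.77, and that of COL1A1 was -0.53. The part of fibroblasts in these results was not tested beyond this fit. Osteoblast markers, summing to 50.6 to 193 CPM in sox10 tumours and 66.5 to 190.4 CPM in mitfa tumours, had 0 of 9 tested called by edgeR, with bglap at or near 0 in every tumour. At an unadjusted p under 0.05 edgeR gave 1 of these 9 higher and 1 lower, and at an adjusted p under 0.05 DESeq2 gave 1 higher and limma 1 lower.

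**Figure D2:**
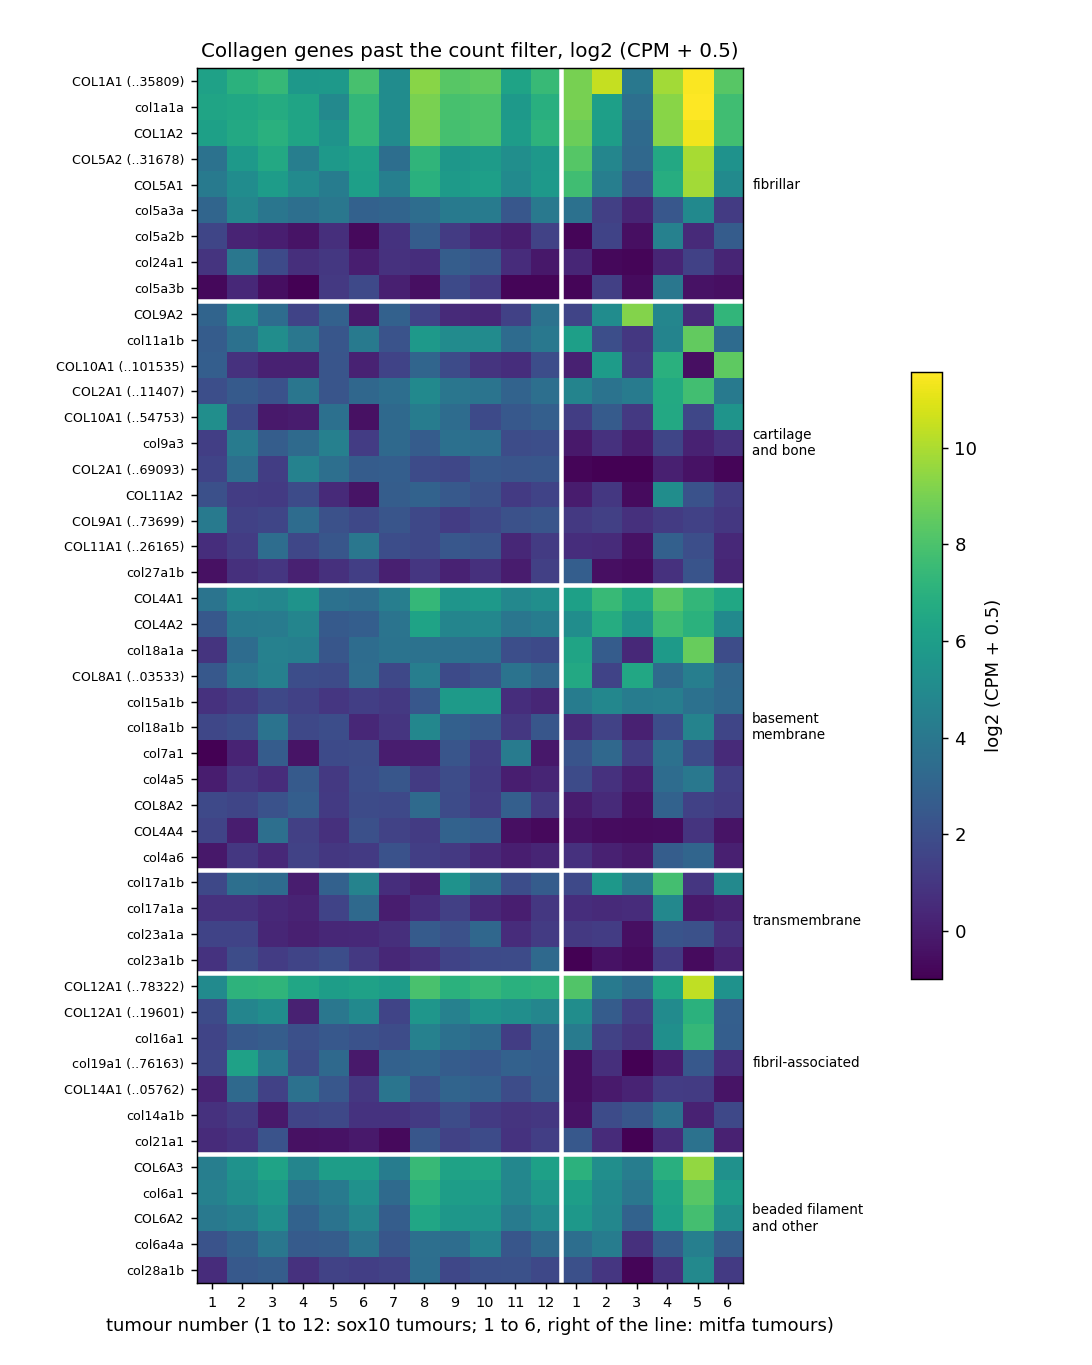
Level of the 47 collagen genes that passed the count filter in every tumour, as log2 of CPM plus 0.5, with the 12 sox10 tumours on the left of the line, the 6 mitfa tumours on the right and the classes from top to bottom. Mitfa tumour 5 is bright and mitfa tumour 3 dark in most but not all of the fibrillar, fibril-associated and beaded filament genes. Sox10 tumour 8 is the brightest sox10 tumour for many genes.

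Of 11 tested collagens of cartilage and bone, sox10 tumours had 3 higher and 4 lower, where 21.5% of all genes tested were higher and 22.4% lower. Both directions also occurred among all genes. Here copies of a chain, and chains that act together, lay in opposite directions. Type II collagen, the main fibril of cartilage and in zebrafish also of the notochord sheath, is encoded by 2 genes named COL2A1. The copy ENSDARG00000069093 had 1.93 to 23.5 CPM in sox10 tumours, with a median of 4.80 CPM, and 0 to 0.579 CPM in mitfa tumours, with a median of 0.0614 CPM. The lowest sox10 tumour was above the highest mitfa tumour, which held for 6.85% of all genes tested. No read was counted in mitfa tumours 2 and 3, where 3 reads would give at most 0.204 CPM. The change on the log2 scale was 5.36 ± 0.85 (SE, adjusted p by edgeR = 5.14e-05), and 6.32 without mitfa tumour 4 (adjusted p by edgeR = 2.58e-05).

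The other COL2A1 copy, ENSDARG00000011407, lay the opposite way. It had 3.51 to 31.2 CPM in sox10 tumours, with a median of 9.88 CPM, and 24.7, 13.2, 18.5, 97.4, 215 and 17.4 CPM in mitfa tumours 1 to 6. Mitfa tumours 4 and 5 were above every sox10 tumour, and the other 4 were within the sox10 range. Its change on the log2 scale was -2.57 ± 0.55 (SE, adjusted p by edgeR = 0.000882), and -1.66 without mitfa tumour 5 (adjusted p by edgeR = 0.0104). With the fibroblast score as a covariate it was -1.60 (adjusted p by edgeR = 0.0709) and not called.

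Type IX collagen, which sits on the surface of type II fibrils and is made of chains from 3 genes, split as well. The gene col9a3 had 1.88 to 21.7 CPM in sox10 tumours, with a median of 7.71 CPM, and 0.398 to 2.55 CPM in mitfa tumours, with a median of 0.935 CPM. Overlap was narrow, since mitfa tumour 4 alone exceeded any sox10 tumour, namely tumours 1 and 6. Its log2 fold change was 2.98 ± 0.60 (SE, adjusted p by edgeR = 0.000506). COL9A1 (ENSDARG00000073699) was higher too, at 4.97 ± 4.61 CPM in sox10 tumours (SD, n = 12) and 1.71 ± 0.370 CPM in mitfa tumours (SD, n = 6), giving a log2 fold change of 1.54 ± 0.48 (SE, adjusted p by edgeR = 0.0138). That call was lost in limma, at 1.13 (adjusted p by limma = 0.0921), with the fibroblast score, at 1.20 (adjusted p by edgeR = 0.150), and with the epidermis score, at 1.22 (adjusted p by edgeR = 0.0605). Against these, COL9A2 had 0.411 to 35.1 CPM in sox10 tumours and 2.45, 33.7, 604, 26.7, 0.923 and 152 CPM in mitfa tumours 1 to 6. Mitfa tumours 3 and 6 were above every sox10 tumour and mitfa tumours 1 and 5 below the sox10 median of 4.64 CPM. The log2 fold change of COL9A2 was -4.20 ± 1.0 (SE, adjusted p by edgeR = 0.00211), -2.52 without mitfa tumour 3 (adjusted p by edgeR = 0.0315) and -4.79 without sox10 tumour 2 (adjusted p by edgeR = 0.000811). The call was lost with the epidermis score as a covariate, at -2.41 (adjusted p by edgeR = 0.178), and with the outside-gene read share, at -2.15 (adjusted p by edgeR = 0.312).

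Type X collagen, a product of cartilage that is about to be replaced by bone and in fish also of osteoblasts, differed by tumour. COL10A1 (ENSDARG00000101535) had 0.602 to 8.04 CPM in sox10 tumours and 0.596, 58.2, 1.84, 125, 0.205 and 349.9 CPM in mitfa tumours 1 to 6. Only mitfa tumours 2, 4 and 6 were above the sox10 range, and mitfa tumours 1 and 5 were below its lowest value. The fold change was -5.0 ± 0.99 on the log2 scale (SE, adjusted p by edgeR = 0.00047), and -3.79 without mitfa tumour 6 (adjusted p by edgeR = 0.00355). The call was lost in limma, at -3.22 (adjusted p by limma = 0.0609), and with the epidermis score, at -4.27 (adjusted p by edgeR = 0.0637). The second copy, ENSDARG00000054753, had -1.54 and was not called (adjusted p by edgeR = 0.180).

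Among the genes of type XI, which starts type II fibrils, col11a1b had 19.8 ± 15 CPM in sox10 tumours (SD, n = 12) and 79.6 ± 144 CPM in mitfa tumours (SD, n = 6), with 369.9 CPM in mitfa tumour 5. It had a log2 fold change of -2.01 ± 0.79 (SE, adjusted p by edgeR = 0.0455) and -0.12 without that tumour (adjusted p by edgeR = 0.907). The call was also lost without any of sox10 tumours 1, 2, 4, 5, 6, 7, 11 and 12 or mitfa tumour 1, at -2.05 to -1.90. COL11A2 (-1.20), COL11A1 (ENSDARG00000026165, 1.0) and col27a1b, a fibrillar gene of cartilage (-0.96), were not called (adjusted p by edgeR = 0.222, 0.240 and 0.216). The sign of COL11A2 rested on mitfa tumour 4, with 35.8 CPM, and without it the log2 fold change was 0.98 (adjusted p by edgeR = 0.258). The last member, col9a1b, did not pass the filter and reached 2.19 CPM in sox10 tumour 7 and 0.219 CPM in mitfa tumours.

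The chondrocyte markers are given beside these genes. They summed to 776 to 2774 CPM in sox10 tumours and to 13.2 to 275 CPM in mitfa tumours. Of 7 tested, 3 were higher in sox10 tumours and 4 not called, where 21.5% of all genes tested were higher. DESeq2 called 3 higher and 1 lower, as did edgeR at an unadjusted p under 0.05, and limma 3 higher and 0 lower. In sox10 tumours nearly all of the sum was hapln1a and HAPLN1 (ENSDARG00000068516), link proteins that bind hyaluronan and are made in neural tissue as well as cartilage. The third was acana, an aggrecan gene, with 1.56 to 15.6 CPM in sox10 tumours and 0 to 1.69 CPM in mitfa tumours. With such mitfa levels acana passed the count filter through the sox10 tumours alone, so that a higher level there was a condition of its being tested. MATN1, an abundant matrix protein of cartilage, was at 0.0571 to 0.736 CPM in sox10 tumours and 0.136 to 1.85 CPM in mitfa tumours, and snorc, UCMA and cnmd were at most 3.46 CPM in any tumour. The part of cartilage cells in these results was not tested.

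Basement membrane chains were lower in sox10 tumours in their most widely made form, type IV α1 and α2. COL4A1 had 10.7 to 165 CPM in sox10 tumours, with a median of 30.3 CPM, and 69.1, 177, 90.2, 310.3, 159 and 88.3 CPM in mitfa tumours 1 to 6. Apart from sox10 tumour 8, which held the highest sox10 value, every sox10 tumour lay below every mitfa tumour. COL4A2 had 4.92 to 76.5 CPM in sox10 tumours, with a median of 17.6 CPM, and 30.6 to 205 CPM in mitfa tumours, with a median of 77 CPM. Log2 fold changes were -1.87 ± 0.48 for COL4A1 (SE, adjusted p by edgeR = 0.00371) and -2.12 ± 0.50 for COL4A2 (SE, adjusted p by edgeR = 0.00212). Both kept their call in every alternative run, as did col9a3 and COL2A1 (ENSDARG00000069093) and no other called collagen. With a tumour left out COL4A1 ranged from -2.33 to -1.52 and COL4A2 from -2.51 to -1.73.

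Endothelial markers, from cells that make these chains, had sums that overlapped. They summed to 78.8 to 172 CPM in sox10 tumours and 59.6 to 171 CPM in mitfa tumours, with 2 of 16 lower and 14 not called. Mural cell markers summed to 114 to 256 CPM in sox10 tumours and 249.9 to 565 CPM in mitfa tumours, with 6 of 11 lower and 5 not called. Of all genes tested 22.4% were lower. Limma called 1 endothelial and 2 mural genes lower, and edgeR with the outside-gene read share as a covariate called 1 of each list lower. Over all genes, those fits called 3680 and 2489 lower. DESeq2 called 1 endothelial gene higher and 2 lower, as did edgeR at an unadjusted p under 0.05. Whether cells around vessels hold part of the difference in type IV collagen was not tested.

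The tissue-restricted type IV chains were higher, not called or not tested. COL4A4, a chain of kidney basement membrane in mammals, was higher, at 0.130 to 11.6 CPM in sox10 tumours with a median of 2.21 CPM, against 0.136 to 1.38 CPM in mitfa tumours with a median of 0.219 CPM. The highest mitfa value was that of tumour 5, and without it the other mitfa tumours reached 0.283 CPM. Its change on the log2 scale was 2.99 ± 0.88 (SE, adjusted p by edgeR = 0.00967), and 3.96 without mitfa tumour 5 (adjusted p by edgeR = 0.00274). In limma with sample quality weights the call was lost, at 2.79 (adjusted p by limma = 0.0811). Its partner col4a3 did not pass the filter and reached 2.08 CPM in sox10 tumour 7 and 0.463 CPM in mitfa tumour 4. The pair col4a5 and col4a6, which in mammals lie side by side in the genome, had log2 fold changes of -1.34 and -0.91 and were not called (adjusted p by edgeR = 0.0853 and 0.229), although col4a5 was called lower without mitfa tumour 3 (-1.58, adjusted p by edgeR = 0.0410).

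Types XV and XVIII lie in the zone next to basement membranes. The gene col18a1a, whose mammalian counterpart also yields the vessel inhibitor endostatin, had 1.37 to 22.4 CPM in sox10 tumours and 79.5, 5.80, 0.885, 57.5, 399.8 and 3.23 CPM in mitfa tumours 1 to 6. Mitfa tumours 1, 4 and 5 were above the sox10 range and mitfa tumour 3 below it. The log2 fold change was -3.11 ± 0.81 (SE, adjusted p by edgeR = 0.00444), and -1.47 without mitfa tumour 5, no longer called (adjusted p by edgeR = 0.106). Its copy col18a1b was not called (0.13, adjusted p by edgeR = 0.903). The value of col18a1b ranged from -0.43 to 1.66 with a tumour left out and was 2.03 (adjusted p by edgeR = 0.0215), a call, with the fibroblast score as a covariate.

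Within the sox10 group col15a1b divided the tumours. It had 56.6 and 54 CPM in sox10 tumours 9 and 10, the pair of very similar libraries, and 0.777 to 4.78 CPM in the other 10, against 9.17 to 27.2 CPM in mitfa tumours. All 10 lay below every mitfa tumour, and tumours 9 and 10 above every one. It was not called (log2 fold change -0.71, adjusted p by edgeR = 0.538), and with tumours 9 and 10 summed as 1 sample the log2 fold change was -1.37 (adjusted p by edgeR = 0.186). It was called lower in limma with sample quality weights, at -2.13 (adjusted p by limma = 0.0309), and with the outside-gene read share as a covariate, at -4.11 (adjusted p by edgeR = 0.0230).

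Types VII and VIII complete the class. COL8A1 (ENSDARG00000003533), a chain of sheet-like networks around vessels and in the eye, was lower, with 9.19 ± 6.88 CPM in sox10 tumours (SD, n = 12) and 38.3 ± 43.7 CPM in mitfa tumours (SD, n = 6). High values of 94.9 and 93.5 CPM were in mitfa tumours 1 and 3, and the other 4 mitfa tumours were within the sox10 range or just below it. Its log2 fold change was -2.06 ± 0.62 (SE, adjusted p by edgeR = 0.0119). It was -1.55 without mitfa tumour 1 (adjusted p by edgeR = 0.0576) and -1.55 without mitfa tumour 3 (adjusted p by edgeR = 0.0591), and was then not called. COL8A2 (0.86) and col7a1, the anchoring fibril chain beneath epidermis (-0.70), were not called (adjusted p by edgeR = 0.234 and 0.538), although COL8A2 was called higher without mitfa tumour 4 (1.77, adjusted p by edgeR = 0.0145). Of this class 1 of 11 tested was higher and 4 lower, where 21.5% of all genes tested were higher and 22.4% lower. The 4 not tested were col4a3, col8a1a and 2 genes named col7a1l, with at most 2.08 CPM in any tumour.

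Transmembrane collagens were few. Type XVII, the hemidesmosome collagen of basal epidermal cells, is encoded by col17a1b and col17a1a. The gene col17a1b had 0.514 to 41.4 CPM in sox10 tumours, with a median of 6.45 CPM, and 2.92, 51, 16.3, 225, 1.49 and 29.5 CPM in mitfa tumours 1 to 6. Mitfa tumours 2 and 4 were above every sox10 tumour. It had a log2 fold change of -2.42 ± 0.88 (SE, adjusted p by edgeR = 0.0317) and -1.0 without mitfa tumour 4 (adjusted p by edgeR = 0.362). Epidermis markers, 16 genes such as krt4, krt5 and epcam, were high in the same mitfa tumours, with sums of 4758 and 6046 CPM in tumours 2 and 4, and of 114 and 179.8 CPM in tumours 1 and 5, which had the least col17a1b. In sox10 tumours the sum was 52.9 to 2814 CPM. With the epidermis score as a covariate the log2 fold change of col17a1b was -0.63 (adjusted p by edgeR = 0.341).

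Its copy col17a1a was not called (-1.53, adjusted p by edgeR = 0.136), but was called lower without sox10 tumour 6 (-2.19, adjusted p by edgeR = 0.0236). Without mitfa tumour 4, which had 28.4 CPM, its direction turned, to 1.20 (adjusted p by edgeR = 0.151). Type XXIII, a membrane collagen that can be shed, is encoded by col23a1a and col23a1b. The gene col23a1b was higher, at 0.808 to 9.26 CPM in sox10 tumours with a median of 2.42 CPM, against 0 to 1.68 CPM in mitfa tumours with a median of 0.214 CPM. Mitfa tumour 4 alone was above the lowest sox10 value. On the log2 scale the fold change was 2.54 ± 0.71 (SE, adjusted p by edgeR = 0.00707), and 3.52 without mitfa tumour 4 (adjusted p by edgeR = 0.000802). With the outside-gene read share as a covariate it was 1.81 (adjusted p by edgeR = 0.101) and not called. Its copy col23a1a had 0.18 (adjusted p by edgeR = 0.832).

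Fibril-associated collagens included the genes COL12A1 and COL14A1, which coat type I fibrils, and minor types. COL12A1 (ENSDARG00000078322) had 31.7 to 251 CPM in sox10 tumours, with a median of 127 CPM, and 283, 16.8, 10.6, 88.3, 1304 and 42.2 CPM in mitfa tumours 1 to 6. The sox10 tumours lay within the mitfa range, and only mitfa tumours 1 and 5 were above the sox10 tumours. It was not called (-1.30 ± 0.69, SE, adjusted p by edgeR = 0.135), nor was the copy ENSDARG00000019601 (-0.55, adjusted p by edgeR = 0.584). Without mitfa tumour 5 both turned positive, to 0.42 (adjusted p by edgeR = 0.595) and 0.55 (adjusted p by edgeR = 0.599). Without mitfa tumours 1 and 5 the copy ENSDARG00000078322 was called higher in sox10 tumours, at 1.55 (adjusted p by edgeR = 0.0306).

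COL14A1 (ENSDARG00000005762) was higher in sox10 tumours, with 0.683 to 14 CPM and a median of 5.46 CPM, against 0.199 to 1.85 CPM and a median of 0.559 CPM in mitfa tumours. Only the values of sox10 tumours 1 and 6 fell within the mitfa range. Its change on the log2 scale was 2.80 ± 0.65 (SE, adjusted p by edgeR = 0.00184). With the outside-gene read share as a covariate the call was lost, at 1.85 (adjusted p by edgeR = 0.102). The copy col14a1b was not called (-1.18, adjusted p by edgeR = 0.0796), and was called lower without mitfa tumour 1 (-1.42, adjusted p by edgeR = 0.0216) or mitfa tumour 5 (-1.40, adjusted p by edgeR = 0.0365). Type XIX, a scarce collagen found near basement membranes, was higher through col19a1 (ENSDARG00000076163). It had 73.7 CPM in sox10 tumour 2 and 0.411 CPM in sox10 tumour 6, the extremes of that group, with a median of 6.56 CPM, and 0 to 5.07 CPM in mitfa tumours. The change on the log2 scale was 3.17 ± 1.01 (SE, adjusted p by edgeR = 0.0156), 2.29 without sox10 tumour 2 (adjusted p by edgeR = 0.0283) and 4.36 without mitfa tumour 5 (adjusted p by edgeR = 0.00358). Limma gave no call, at 3.27 (adjusted p by limma = 0.0624).

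The gene col16a1, whose protein links fibrils to cells, was lower. It had 6.81 ± 5.61 CPM in sox10 tumours (SD, n = 12) and 38.9 ± 64.5 CPM in mitfa tumours (SD, n = 6), with 167 CPM in mitfa tumour 5. Its log2 fold change was -2.51 ± 0.72 (SE, adjusted p by edgeR = 0.00811) and -0.95 without that tumour (adjusted p by edgeR = 0.230). The gene col21a1 was not called (-0.97, adjusted p by edgeR = 0.364). Without mitfa tumour 5 it was 0.20 (adjusted p by edgeR = 0.871), and with the fibroblast score as a covariate it was called higher, at 2.46 (adjusted p by edgeR = 0.0247). A second gene named col19a1, ENSDARG00000096073, did not pass the filter and reached 3.05 CPM in sox10 tumour 2, the tumour highest for the first. In this class 2 of 7 tested were higher and 1 lower, where 21.5% of all genes tested were higher and 22.4% lower.

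Type VI collagen forms beaded filaments around most connective tissue cells from chains of col6a1, COL6A2 and COL6A3. In sox10 tumours col6a1 had 9.63 to 121 CPM with a median of 38 CPM, COL6A2 6.0 to 85.4 CPM with a median of 23.9 CPM, and COL6A3 18.7 to 175 CPM with a median of 63.3 CPM. In mitfa tumours the medians were 63.7, 44.5 and 81.5 CPM, and tumour 5 stood out in all 3, at 318, 224 and 741 CPM. COL6A3 alone was called, with a log2 fold change of -1.57 ± 0.60 (SE, adjusted p by edgeR = 0.0411) that was -0.20 without mitfa tumour 5 (adjusted p by edgeR = 0.773). It also lost the call without any of sox10 tumours 1, 2, 4, 5, 6, 7, 11 and 12, at -1.58 to -1.48. The others had -1.15 and -1.21 (adjusted p by edgeR = 0.0912 and 0.0862), and gained a call without mitfa tumour 3 (-1.38 and -1.46, adjusted p by edgeR = 0.0423 and 0.0336) or sox10 tumour 8 (-1.42 and -1.48, adjusted p by edgeR = 0.0333 and 0.0330).

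The chain col6a4a had 9.72 ± 5.77 CPM in sox10 tumours (SD, n = 12) and 10.7 ± 7.87 CPM in mitfa tumours (SD, n = 6) and was not called (-0.14, adjusted p by edgeR = 0.833). Type XXVIII, which in mice lies around peripheral nerves, had 4 genes. Only col28a1b could be tested and was not called (-0.79, adjusted p by edgeR = 0.400). Its sign rested on mitfa tumour 5, with 29.9 CPM, and was turned without it, at 1.18 (adjusted p by edgeR = 0.138). The gene col28a2b had no read in any mitfa tumour, where 3 reads over the group would be 0.0293 CPM, and at most 0.841 CPM in sox10 tumours. The gene col28a1a was at most 0.357 CPM in sox10 tumours and 3.06 CPM in mitfa tumour 3, and col28a2a at most 1.23 CPM in sox10 tumours and 4.74 CPM in mitfa tumour 4.

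Summed over a class, the groups overlapped in every class. These sums are of CPM, not corrected for gene length, so they are compared between tumours and not between classes. Fibrillar genes summed to 143 to 1976 CPM in sox10 tumours, with a median of 506 CPM, and to 52 to 10384 CPM in mitfa tumours, with a median of 1776 CPM. The mitfa sums spanned far more, with tumour 3 below all sox10 tumours and tumours 4 and 5 above them all. For cartilage and bone, the sums were 40.4 to 136 CPM in sox10 tumours and 107, 120.5, 629, 418, 604 and 580.1 CPM in mitfa tumours 1 to 6. Tumours 3 to 6 were there above every sox10 tumour. Of the mitfa tumours, tumour 3 was highest for COL9A2, tumours 6 and 4 for COL10A1 (ENSDARG00000101535) and tumour 5 for col11a1b.

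Basement membrane genes summed to 35.5 to 323 CPM in sox10 tumours and to 149 to 779 CPM in mitfa tumours. For the other classes the medians were 13.6 CPM in sox10 tumours and 24.8 CPM in mitfa tumours for transmembrane genes, 129 CPM in sox10 tumours and 208 CPM in mitfa tumours for beaded filaments, and 179.8 CPM in sox10 tumours and 118 CPM in mitfa tumours for fibril-associated genes. The last was the only class with a higher median in sox10 tumours. All 56 genes summed to 417 to 3190.2 CPM in sox10 tumours, with tumour 8 highest, and 1017 to 14730.4 CPM in mitfa tumours. Of the 47 genes tested, mitfa tumour 5 had the highest mitfa value in 25 and mitfa tumour 4 in 17, mitfa tumour 3 the lowest in 30, and sox10 tumour 8 the highest sox10 value in 22.

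**Figure D3:**
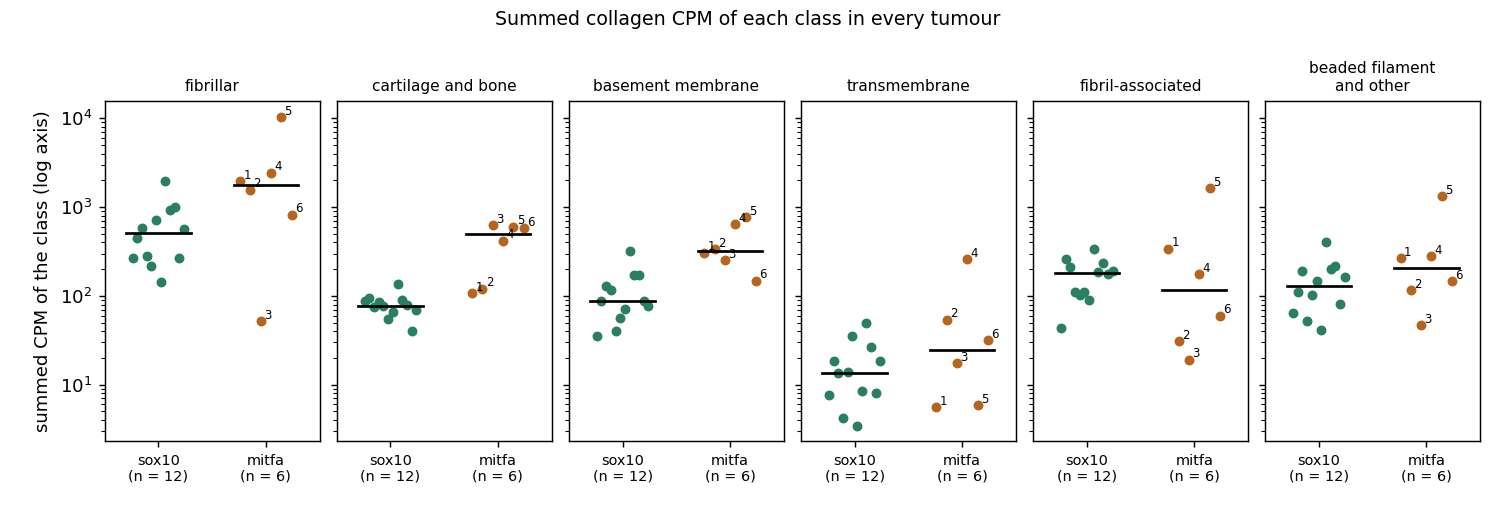
Summed CPM of each collagen class in every tumour on a log axis, with sox10 tumours on the left and mitfa tumours, labelled by number, on the right of each panel, and a bar at the group median. Fibrillar sums run from 143 to 1976 CPM in sox10 tumours and from 52.0 to 10384 CPM in mitfa tumours, with tumour 3 lowest and tumour 5 highest.

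Ratios of chains within a tumour compare collagens of the same RNA sample. Copies of a chain were summed, and 24 ratios of partner chains or of copies were tested for a difference between groups by permuting the tumours exactly (18564 splits, 2-sided), with p adjusted over the 24. The largest difference was in type II collagen. The log2 ratio of COL2A1 (ENSDARG00000011407) over COL2A1 (ENSDARG00000069093) was -1.28 to 3.14 in sox10 tumours and 4.77 to 8.16 in mitfa tumours. The groups did not overlap, and the difference of -5.17 had a permutation p of 5.39e-05, the smallest that these splits can give (exact permutation adjusted p = 0.00129). It was the only ratio of 24 with groups apart. The copy ENSDARG00000069093 averaged 6.94 CPM in sox10 tumours and 0.160 CPM in mitfa tumours. It thus reached the mean of 2 CPM needed for a ratio through the sox10 tumours. The ratio partly restates the calls of the 2 copies and is not separate from them.

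Copies of type XIV also shifted against each other. The log2 ratio of COL14A1 (ENSDARG00000005762) over col14a1b averaged 1.32 ± 0.95 in sox10 tumours (SD, n = 12) and -1.29 ± 1.37 in mitfa tumours (SD, n = 6), a difference of 2.61 (exact permutation adjusted p = 0.00646). Of the type IX chains only col9a1 was set over col2a1, and col9a2 and col9a3 were not. The log2 ratio of col9a1 over col2a1 averaged -1.76 ± 1.25 in sox10 tumours (SD, n = 12) and -4.05 ± 1.51 in mitfa tumours (SD, n = 6), a difference of 2.29 (exact permutation adjusted p = 0.00862). The ratios of the type XIV copies, of col9a1 over col2a1 and of the COL2A1 copies were called in every alternative run. COL14A1 (ENSDARG00000005762) and col9a1 also reached 2 CPM through the sox10 tumours. Their means were 6.10 and 5.39 CPM there and 0.866 and 1.76 CPM in mitfa tumours. Within type IX, col9a2 over col9a1 differed by -3.63 (exact permutation adjusted p = 0.0287), with mitfa values from -0.93 to 8.51. That call was lost without mitfa tumour 2, 3, 4 or 6, at -3.62, -2.64, -3.63 and -3.10 (exact permutation adjusted p = 0.0683, 0.0800, 0.0562 and 0.0742).

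Type I chains kept a steady ratio in nearly all tumours. The log2 ratio of col1a2 over col1a1 was -1.29 to -0.70 in sox10 tumours, -1.47 to -1.23 in 5 mitfa tumours and -4.49 in mitfa tumour 2, where 1 COL1A1 copy was high alone. The difference of 0.73 (exact permutation adjusted p = 0.00873) was 0.19 without that tumour and no longer called (exact permutation adjusted p = 0.0842). For col12a1 over col1a1 the difference was 2.01 (exact permutation adjusted p = 0.0145) and 1.41 without mitfa tumour 2 (exact permutation adjusted p = 0.0683). The last called ratio, col23a1a over col23a1b at -1.69 (exact permutation adjusted p = 0.0393), lost its call without any of sox10 tumours 2, 3, 4, 5, 6, 11 and 12 or mitfa tumours 1, 2, 4 and 5, at -1.74 to -1.42. The copy col23a1b also reached 2 CPM through the sox10 tumours, with means of 2.83 CPM there and 0.477 CPM in mitfa tumours.

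Ratios between partner chains of type IV and of type VI were not called. The log2 ratio of col4a2 over col4a1 was -0.90 ± 0.24 in sox10 tumours (SD, n = 12) and -0.84 ± 0.42 in mitfa tumours (SD, n = 6), a difference of -0.056 (exact permutation adjusted p = 0.809). For col6a2 over col6a1 and col6a3 over col6a1 the differences were -0.048 and 0.085 (exact permutation adjusted p = 0.797 and 0.809). A missed threshold does not show that the ratios are equal. With a tumour left out these 3 differences stayed within -0.19 to 0.23.

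**Figure D4:**
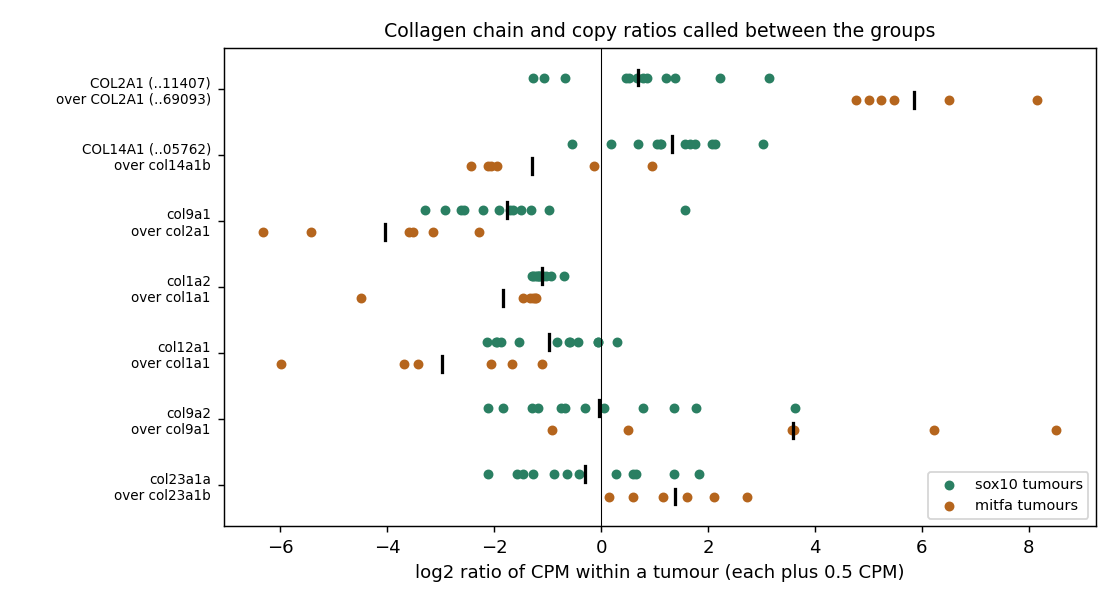
Log2 ratio of collagen chains or copies within each tumour for the 7 ratios called between the groups, with sox10 tumours above mitfa tumours in each pair of rows and a bar at the group mean. The ratio of the COL2A1 copies is the only one in which the groups do not overlap, and the low mitfa point of col1a2 over col1a1 is tumour 2.

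Across the 12 sox10 tumours, partner chains of type I, of type IV and of type VI varied together, as did types I and V. Of 14 relations computed on log2 CPM, with 100000 permutations and adjustment over the 14, 6 had an adjusted p under 0.05 by both Pearson's r and Spearman's rho. The sum of col1a1 copies and col1a2 had r = 0.994 and rho = 0.993 (permutation adjusted p = 4.67e-05 for both, from the smallest p of 1e-05 that the permutations can give), and r = 0.989 without sox10 tumours 7 and 8. For col6a1 and col6a2, r was 0.995 and rho 1, and for col4a1 and col4a2 0.976 and 0.944, with the same adjusted p, and r without 2 tumours was 0.990 (sox10 tumours 4 and 7 left out) and 0.964 (sox10 tumours 6 and 8 left out). For col1a1 and col5a1, r was 0.918 and rho 0.881 (permutation p = 0.00011 and 0.00036, adjusted 0.000385 and 0.00126), and r was 0.862 without sox10 tumours 7 and 8. Cartilage partners were not called, with r = -0.105 and rho = 0.035 for col2a1 and col9a1 (permutation adjusted p = 0.752 and 0.921), and r = 0.235 and rho = 0.280 for col2a1 and col11a1 (permutation adjusted p = 0.536 and 0.434). Without sox10 tumours 1 and 3 these were r = 0.448 and 0.396.

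Marker scores, the mean log2 CPM of a list, followed some collagens within the sox10 group. The epidermis score and col17a1 had r = 0.880 and rho = 0.853 (permutation p = 0.00024 and 0.00088, adjusted 0.000672 and 0.00246), and r = 0.807 without sox10 tumours 4 and 6. The fibroblast score had r = 0.849 and rho = 0.741 with col6a1 (permutation p = 0.00041 and 0.00777, adjusted 0.000957 and 0.0155), and r = 0.710 and rho = 0.608 with col1a1 (permutation p = 0.00874 and 0.0387, adjusted 0.0175 and 0.0678). Without sox10 tumours 4 and 7 these were r = 0.648 and 0.613. The skeletal muscle score and col1a1 had r = 0.617 and rho = 0.762 (permutation p = 0.0337 and 0.0053, adjusted 0.0590 and 0.0124), and r = 0.498 without sox10 tumours 4 and 5. No call by either coefficient was made for the endothelium score with col4a1 (r = 0.293, rho = 0.266), the osteoblast score with col10a1 (r = 0.544, rho = 0.462), the epidermis score with col7a1 (r = 0.299, rho = 0.490) or the chondrocyte score with col2a1 (r = 0.131, rho = 0.343), at permutation adjusted p of 0.106 to 0.744 for r and 0.170 to 0.434 for rho. The last had r = 0.828 without sox10 tumours 1 and 6.

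Genes that fold and modify collagen inside the cell were mostly lower in sox10 tumours. Of 25 hydroxylases, glycosyltransferases and chaperones, 23 were tested, 16 were lower and 1 higher, with a median log2 fold change of -1.84, and 16 were lower whichever single tumour was left out. Of all genes tested 22.4% were lower and 21.5% higher. SERPINH1 (ENSDARG00000075954), the collagen chaperone HSP47, had 4.62 to 12.6 CPM in sox10 tumours, with a median of 6.74 CPM, and 41 to 105 CPM in mitfa tumours, with a median of 56.1 CPM. The groups did not overlap, as in 4 others of this list, P3H1, P3H2, P3H3 and PLOD1, where 4.91% of all genes tested lay wholly below in sox10 tumours. It had a log2 fold change of -3.17 ± 0.22 (SE, adjusted p by edgeR = 1.87e-09). Unlike the type I genes, it was not lowest in mitfa tumour 3, which had 56.9 CPM, nor highest in mitfa tumour 5, which had 47.2 CPM.

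Further members of the list are named with their values already seen. The prolyl 3-hydroxylases P3H1, P3H2 and P3H3 had log2 fold changes of -2.58, -4.23 and -3.74 (adjusted p by edgeR = 1.1e-06, 4.06e-06 and 1.49e-08), and CRTAP, which works in a complex with P3H1, had -3.17 (adjusted p by edgeR = 3.73e-06). PLOD2, which hydroxylates lysines for cross-links, had -3.92 (adjusted p by edgeR = 1.77e-05). PPIB, a prolyl isomerase of the same complex, was lower by less, at 313 ± 76 CPM in sox10 tumours (SD, n = 12) and 665 ± 186 CPM in mitfa tumours (SD, n = 6), giving a log2 fold change of -1.09 ± 0.20 (SE, adjusted p by edgeR = 0.000185). P4HB, the shared subunit of prolyl 4-hydroxylase and a general folding enzyme, was not called (-0.31, adjusted p by edgeR = 0.334). COLGALT1 (ENSDARG00000058270), which adds galactose to collagen, was the 1 higher gene (1.21 ± 0.27, SE, adjusted p by edgeR = 0.00149), while its copy ENSDARG00000073974 was lower (-1.23, adjusted p by edgeR = 0.000455). With the fibroblast score as a covariate 14 of these 23 genes were lower, and 5 of the 47 collagens. Over all 18731 genes tested that fit called 3107 lower. With the outside-gene read share as a covariate 14 of the 23 were lower and 0 higher, so the COLGALT1 call was lost. Over all genes that fit called 2489 lower and 2432 higher.

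Enzymes that act on collagen outside the cell were partly lower. In the list of procollagen proteinases and cross-linking enzymes 8 of 17 tested were lower and 9 not called, with a median of -1.52. Of all genes tested 22.4% were lower. LOXL2 (ENSDARG00000044074), a lysyl oxidase that cross-links type IV collagen, had 3.58 to 13.8 CPM in sox10 tumours, with a median of 10.9 CPM, and 66.4 to 409 CPM in mitfa tumours, with a median of 99 CPM. Its groups did not overlap, where 4.91% of all genes tested lay wholly below in sox10 tumours. The log2 fold change was -3.87 ± 0.35 (SE, adjusted p by edgeR = 5.76e-08), and -3.25 without mitfa tumour 2 (adjusted p by edgeR = 2.25e-08). Its copy loxl2a had -2.14 ± 0.49 (SE, adjusted p by edgeR = 0.00165), and -0.62 without mitfa tumours 1 and 5 (adjusted p by edgeR = 0.239), in which it had 197 and 259 CPM. Without these tumours 3 members of the list were lower, and 4093 of all genes tested. Limma called 6 members lower, and edgeR 4 with either the fibroblast score or the outside-gene read share as a covariate. Over all genes, these fits called 3680, 3107 and 2489 lower in that order.

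Among collagen receptors 4 of 11 tested were lower and 7 not called, where 22.4% of all genes tested were lower, and limma called 1 lower. ITGB1 (ENSDARG00000071863) and ITGA1, integrin subunits that bind collagen as a pair, were not called (-0.54 and -0.93, adjusted p by edgeR = 0.105 and 0.215). ITGA10, an integrin subunit of cartilage cells in mammals, was lower (-3.79 ± 0.80, SE, adjusted p by edgeR = 0.000764), with 2.21 ± 1.45 CPM in sox10 tumours (SD, n = 12) and 30.7 ± 52.1 CPM in mitfa tumours (SD, n = 6). It had 133 CPM in mitfa tumour 5, and without that tumour its log2 fold change was -2.20 (adjusted p by edgeR = 0.0155). The call was lost without mitfa tumours 1 and 5, at -0.60 (adjusted p by edgeR = 0.483), in limma, at -1.50 (adjusted p by limma = 0.171), with the fibroblast score, at -0.90 (adjusted p by edgeR = 0.556), and with the outside-gene read share, at -3.17 (adjusted p by edgeR = 0.104). The count of lower receptors was 2 without any 1 of sox10 tumours 4, 10 and 12 or mitfa tumours 2, 4 and 5. With the fibroblast score as a covariate 1 receptor was higher and the other 10 not called. That fit called 3067 of all genes tested higher and 3107 lower.

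Collagen-degrading enzymes and their inhibitors gave 8 lower and 1 higher of 15 tested, where 22.4% of all genes tested were lower and 21.5% higher. The count of lower genes was 5 without mitfa tumour 4. It was 3 with the outside-gene read share and 2 with the fibroblast score as a covariate. Over all genes, those fits called 2489 and 3107 lower. MMP2 and fap of this list also stand among the fibroblast markers, so their counts are not separate. MMP14 (ENSDARG00000008388), the main membrane collagenase, and MMP9, a gelatinase, were not called (-0.21 and -0.18, adjusted p by edgeR = 0.740 and 0.895). MMP15 (ENSDARG00000051962) was lower (-3.90 ± 0.54, SE, adjusted p by edgeR = 1.26e-05). MMP16, another membrane metalloproteinase, was higher, at 0.469 to 9.17 CPM in sox10 tumours with a median of 2.53 CPM, against 0 to 0.231 CPM in mitfa tumours with a median of 0.0897 CPM. Its groups did not overlap, where 6.85% of all genes tested lay wholly above in sox10 tumours. With such mitfa levels it passed the count filter through the sox10 tumours alone. The log2 fold change of MMP16 was 4.97 ± 0.86 (SE, adjusted p by edgeR = 0.000114).

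Proteins that bind to fibrils were lower in 10 of 24 tested and not called in 14, with a median of -1.41, where 22.4% of all genes tested were lower. The count of 10 was 12 in DESeq2 and 3 in limma. With the outside-gene read share as a covariate in edgeR it was 0 at an adjusted p under 0.05. At an unadjusted p under 0.05 that fit gave 3. Over all genes, these fits called 4486, 3680 and 2489 lower at an adjusted p under 0.05. SPARC, a collagen-binding glycoprotein, had 46.5 to 239.7 CPM in sox10 tumours with a median of 132 CPM, and 83.7 to 1041 CPM in mitfa tumours with a median of 557 CPM, a log2 fold change of -2.06 ± 0.41 (SE, adjusted p by edgeR = 0.000498). It was not called with the fibroblast score, at -0.79 (adjusted p by edgeR = 0.140), or the outside-gene read share, at -1.26 (adjusted p by edgeR = 0.108). THBS4 (ENSDARG00000020072), a thrombospondin of tendon, had -4.08 ± 0.80 (SE, adjusted p by edgeR = 0.000404), and -2.82 without mitfa tumour 5 (adjusted p by edgeR = 0.00392). The call was lost without mitfa tumours 1 and 5, at -1.02 (adjusted p by edgeR = 0.203), in limma, at -1.43 (adjusted p by limma = 0.209), with the fibroblast score, at -2.19 (adjusted p by edgeR = 0.257), and with the outside-gene read share, at -3.57 (adjusted p by edgeR = 0.0862). FN1 (ENSDARG00000006526), a fibronectin gene, was not called (-0.58, adjusted p by edgeR = 0.537). Of this list, DCN, LUM, DPT, both POSTN and both OGN genes also stand among the fibroblast markers, so their counts are not separate. With that score as a covariate 2 of the 24 were lower and 3 higher, where 3107 of all genes tested were lower and 3067 higher.

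**Figure D5:**
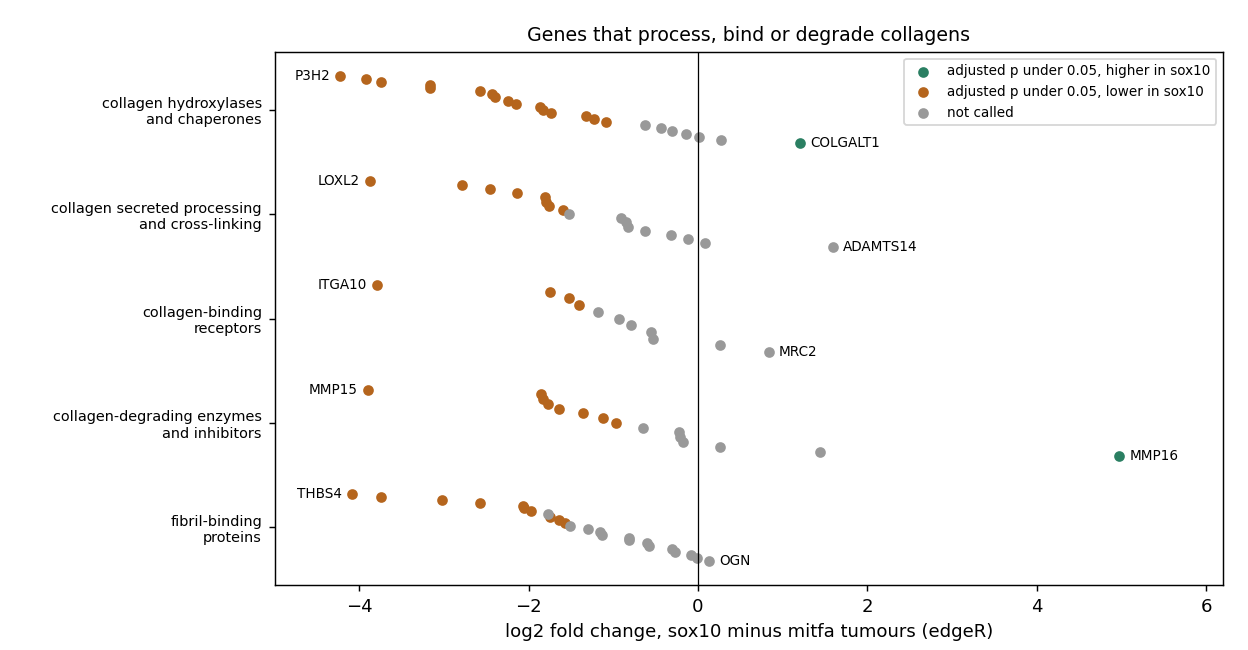
Log2 fold change, sox10 minus mitfa tumours, of the genes tested in 5 lists of collagen biosynthesis, processing, receptors, turnover and fibril-binding proteins, each point a gene, with the lowest and highest of each list named. Most hydroxylases and chaperones lie below 0, with 16 of 23 called lower, and MMP16 at 4.97 is the highest point.

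Other cell types were present in varying amounts. Skeletal muscle markers summed to 25.8 to 12306 CPM in sox10 tumours and 29.8 to 16894 CPM in mitfa tumours, with 0 of 12 called by edgeR, DESeq2 or limma at an adjusted p under 0.05, and 1 higher and 1 lower by edgeR at an unadjusted p under 0.05. Leukocyte markers summed to 1479 to 3652 CPM in sox10 tumours and 2385 to 5199.6 CPM in mitfa tumours, with 10 of 16 lower and 1 higher. Of all genes tested 22.4% were lower and 21.5% higher. Limma called 8 leukocyte genes lower and 1 higher, and edgeR with the outside-gene read share as a covariate 5 lower and 0 higher. Fin ray actinotrichia markers summed to 2.71 to 21.9 CPM in sox10 tumours and 1.09 to 15.3 CPM in mitfa tumours. Reads that fell outside genes were 11.1% to 17.4% of the total in sox10 tumours and 9.46% to 12.8% in mitfa tumours. With that share as a covariate 7 collagens were lower, and 2489 of all genes tested, against 4190 in the main fit. The part of these cell types and reads in the collagen results was not tested beyond these fits.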

How the data were processed

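Total RNA of 18 whole zebrafish tumours, extracted with Trizol, was sequenced on Illumina libraries, per the labels' protocols. The deposited table holds raw read counts per Ensembl gene, with 1 column per tumour and no normalization by the authors. Per the submitters' processing notes, FastQC, Trimmomatic, STAR, DESeq2 and the build GRCz10 were used, with no roles stated. Not given in the sources used here are the annotation release and the use of strand, so reads from overlapping genes, antisense genes or near-identical copies may be shared or lost. The 4 entries that name no gene, 19.9% to 30.1% of reads, were left out of library sizes and tests. Gene names were matched to 24020 of 27057 Ensembl identifiers with a table of names, and no genome or sequence was used.

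Counts were tested with edgeR 4.0.16 in R 4.3.3, using TMM factors, filterByExpr (minimum count 10) and the quasi-likelihood F test over 18731 genes, with Benjamini-Hochberg adjustment and a threshold of 0.05. The 2 groups were taken from the labels, and the fit used all 18 tumours with no covariate. The SE of each log2 fold change was derived from its F statistic. CPM were computed from the deposited counts with TMM library sizes and are not per length, so a higher CPM of 1 gene than another is a larger share of reads and not a higher transcript level. Ratios and correlations used log2 of CPM plus 0.5 and scipy 1.17.1, for chains with a mean of at least 2 CPM. A count of 3 reads, the limit that a count of 0 allows, was 0.146 to 0.204 CPM per tumour, and covers counting error only. The edgeR test and the permutation test were checked on simulated data.

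Genes described in full are the 3 with the highest mean and the 2 called genes with the smallest adjusted p in each direction per collagen class, 25 genes in all, and in each list of related genes the 2 highest and the most significant in each direction. Every other collagen gene was given for completeness with its values already seen. The members, lists and alternatives were chosen with earlier results of these data known, and lists of cell type markers share no genes with the collagens. Alternatives were DESeq2 1.42.0, limma 3.58.1, RLE factors, other count filters, a replicate block, covariates, other pseudocounts and tumours left out.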

Additional observations from a re-analysis of the deposited data

Results flagged for a closer look

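In each collagen gene named by the rule, each class sum and each ratio, the 6 mitfa tumours were searched for a tumour whose gap to the nearest other was over 0.625 of the group's range. Of 56 such groups of values 24 held one, where chance gives about 1 in 20 for normally distributed values. The CPM and their sums were right-skewed in the mitfa group, and no chance rate was computed for such values. The genes share tumours, so these are not separate events.

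Mitfa tumour 5 stood alone at the top for fibrillar collagen, with 3030 CPM of col1a1a and 2529.8 CPM of COL1A2, and for type VI collagen, with 318 CPM of col6a1, 224 CPM of COL6A2 and 741 CPM of COL6A3. The same tumour stood alone for col18a1a at 399.8 CPM, col11a1b at 369.9 CPM, COL12A1 (ENSDARG00000078322) at 1304 CPM, COL12A1 (ENSDARG00000019601) at 130.4 CPM and col16a1 at 167 CPM. At low level it did so for COL4A4 at 1.38 CPM and col19a1 (ENSDARG00000076163) at 5.07 CPM, both of which were higher in sox10 tumours. Its class sums were 10384 CPM of fibrillar, 1623 CPM of fibril-associated and 1334 CPM of beaded filament genes, and it had 14730 CPM over all collagens. Fibroblast markers (2278 CPM) and skeletal muscle markers (16894 CPM) were also highest in that tumour among mitfa tumours. Their part in these values was not tested within the mitfa group.

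Mitfa tumour 4 stood alone for the epidermal collagens col17a1b, at 225 CPM, and col17a1a, at 28.4 CPM, for col23a1b at 1.68 CPM, and for the transmembrane sum at 259 CPM. It also had the highest epidermis marker sum of the mitfa tumours, 6046 CPM. Mitfa tumour 3 stood alone for COL9A2 at 603.6 CPM, and mitfa tumour 6 for COL10A1 (ENSDARG00000101535) at 349.9 CPM. In mitfa tumour 2 the log2 ratio of col1a2 over col1a1 was -4.49 and that of COL1A1 (ENSDARG00000035809) over col1a1a was 4.36, apart from the other 5 mitfa tumours.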

How the results depend on the processing

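Higher collagens, 7 of 47 tested in the main analysis, numbered 11 with the fibroblast score as a covariate and 7 to 9 with a tumour left out. They numbered 4 where genes needed 5 CPM in 6 tumours, a filter that left only 27 collagens to test. Lower collagens, 16 in the main analysis, numbered 5 in limma, 5 with the fibroblast, 10 with the epidermis score and 7 with the outside-gene read share as covariate. They numbered 8 without mitfa tumours 1 and 5, 9 without mitfa tumours 3 and 5 (an alternative chosen after seeing the data), and 9 to 19 with a tumour left out. RLE factors moved the median of all genes from -0.033 to -0.037. With a replicate block, a term for the tumour number, 5 collagens were higher and 4 lower. Sox10 tumours with no mitfa tumour of the same number, 9 and 10 among them, add nothing to the group difference in that fit. It rests on the 6 same-numbered pairs. Its fewer calls, over collagens and over all genes, therefore cannot be told apart from the loss of those tumours. Calls over all genes fell too in limma, with these covariates and with the block, from 4024 higher and 4190 lower in the main fit. They were 3612 and 3680 in limma, 3067 and 3107 with the fibroblast score and 3798 and 3555 with the epidermis score. With the outside-gene read share they were 2432 and 2489, and with the replicate block 2660 and 2109. Without mitfa tumours 1 and 5 they were 3806 and 4093 of 19563 tested. Without mitfa tumours 3 and 5 they were 3676 and 3840 of 19454 tested. Deviations of same-numbered tumours correlated at -0.308 to 0.172, over 0.1 in 3 of 6 pairs and best with their own number in 1, so the numbers do not pair the tumours.

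Log2 fold changes turned positive with the fibroblast score for COL6A3 (0.53), col11a1b (1.15), COL12A1 (ENSDARG00000019601, 2.24), col16a1 (0.13), col21a1 (2.46), COL1A2 (0.84), col1a1a (0.66), COL5A1 (0.67), COL5A2 (0.77), FN1 (2.29), DCN (0.37) and POSTN (ENSDARG00000043806, 2.97). They did so without mitfa tumours 1 and 5 for COL6A3 (0.14), col11a1b (0.95), COL12A1 (ENSDARG00000078322, 1.55), COL5A1 (0.15), COL5A2 (0.34), FN1 (2.06) and DCN (0.050), and in limma for col11a1b (0.12). These lists cover only genes called in the main fit or in the alternative named, so genes called in neither may have turned as well. A single tumour turned the sign of 10 collagens that were not called. Leaving out mitfa tumour 5 gave col28a1b (1.18), both COL12A1 copies (ENSDARG00000019601, 0.55, and ENSDARG00000078322, 0.42), col21a1 (0.20) and col6a4a (0.18), and leaving out mitfa tumour 4 gave col17a1a (1.20), COL11A2 (0.98) and col5a3b (0.73). The others, col18a1b and col23a1a, were near 0 and turned to as low as -0.43 and -0.19. The cause was not tested.

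Of the ratios, col4a5 over col4a1 (1.45) and the COL10A1 copies (-1.57) gained a call and col23a1a over col23a1b (-0.86) lost it with a pseudocount of 2 CPM. Without mitfa tumours 1 and 5, calls were gained by col5a1 over col1a1 (1.53), col11a1 over col2a1 (2.0), col4a5 over col4a1 (2.01), col18a1 over col15a1 (2.85), the COL10A1 copies (-2.65), col17a1b over col17a1a (-2.41) and, turned from -0.26, COL5A2 over col5a2b (1.84), and col23a1a over col23a1b (-1.18) lost it. With a tumour left out, the ranges were 1.05 to 1.56 for col9a3 over col9a1, -1.94 to -1.42 for col23a1a over col23a1b, 0.49 to 1.26 for col5a1 over col1a1, 0.19 to 0.85 for col1a2 over col1a1, 1.41 to 2.38 for col12a1 over col1a1, -4.53 to -2.64 for col9a2 over col9a1 and -2.09 to -1.0 for the COL10A1 copies. No correlation changed its call with another pseudocount or with sox10 tumours 9 and 10 averaged. Depth limits the 9 collagens that were not tested, each at most 4.74 CPM in any tumour.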
